A study of Mus musculus with 6 samples.

Results

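Granzymes are the family of 10 mouse genes Gzma, Gzmb, Gzmc, Gzmd, Gzme, Gzmf, Gzmg, Gzmk, Gzmm and Gzmn, chosen by name and followed here in cultured mast cells of 2 mouse strains. All 10 were matched, through 22 deposited transcripts, among 35297 genes matched in all. RNA was taken on day 20 of culture from bone marrow-derived mast cells (BMMCs), with 3 libraries from wild type BALB/c mice (S9, S10 and S11) and 3 from wild type C57BL/6 mice (S12, S13 and S14). Cells of both strains were grown with stem cell factor, TGF-β1, IL-9 and IL-3, and no further treatment is named. The study calls the libraries biological replicates, but the labels name no animals, so p-values measure only the spread between these libraries. Sex and age of the marrow donors were not given in the sources used here. Between 28273365 and 37100869 reads per library were assigned to genes.

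Granzymes are serine proteases best known from the granules of cytotoxic T cells and natural killer (NK) cells. There they are bound to the proteoglycan serglycin, made active by the dipeptidyl peptidase cathepsin C, and carried into target cells by the pore-forming protein perforin, after which they cleave intracellular proteins. Mast cells store related serine proteases, the chymases, in granules of their own, and granzymes B and D have been described in mouse mast cells.

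Each of the 9 mast cell marker genes examined was read in every library, and their summed level lay between 34663 and 38620.1 TPM in BALB/c and between 34238 and 37465 TPM in C57BL/6 (TPM, the share of all transcripts after correction for transcript length, on a scale with the same total in each library). The markers did not all stay level between strains. Tpsb2, a mast cell tryptase gene, had a log2 fold change of 2.32 (edgeR, adjusted p = 5.16e-07) and Hdc, the gene of the histamine-forming enzyme, of 1.19 (edgeR, adjusted p = 0.000735), both above 2-fold and higher in C57BL/6. Cma1, a mast cell chymase gene, was lower in C57BL/6 but under 2-fold (-0.43; edgeR, adjusted p = 0.00107). Kit and Fcer1a, the receptors for stem cell factor and IgE, had between 49502 and 127866 reads per library. Markers of T cells had a summed level of 0.345 to 0.465 TPM in BALB/c and 0.305 to 0.477 TPM in C57BL/6. Cd3e, Cd3d, Cd3g, Cd4 and Cd5 had 0 reads in every library.

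The family was read very unevenly. A single member, Gzmb, held between 99.3% and 99.5% of all granzyme TPM in BALB/c BMMCs and between 95.6% and 96.4% in those of C57BL/6. Gzma, Gzmc, Gzmd, Gzme and Gzmm were read at low levels, and Gzmf, Gzmg, Gzmk and Gzmn had 0 reads in all 6 libraries. Gzma, Gzmc, Gzmd and Gzme were higher in C57BL/6 BMMCs, whereas for Gzmb and Gzmm no difference passed the test. The plot of TPM by library shows the 3 levels at which the family sits.

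**Figure D1:**
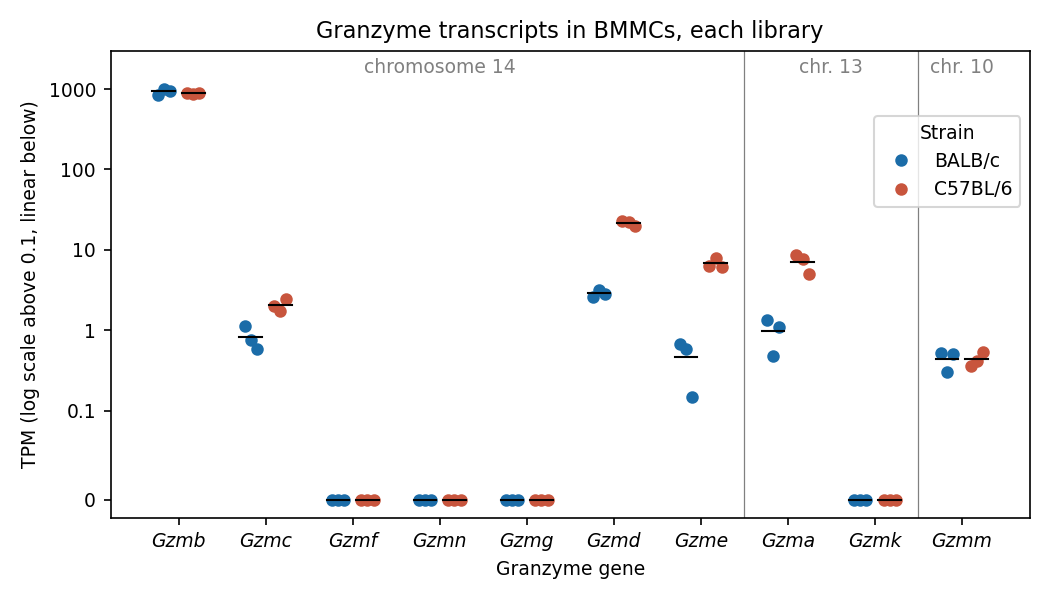
TPM of each granzyme gene in each of the 6 libraries, on an axis that is logarithmic above 0.1 and linear below; points are libraries and black bars are strain means. Gzmb has means of 937 and 882 in the strains, Gzmd, Gzme, Gzma and Gzmc are higher in every C57BL/6 library than in any BALB/c library, and Gzmf, Gzmg, Gzmk and Gzmn are at 0.

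The genes lie at 3 places in the genome (coordinates of the GRCm39 annotation of GENCODE). The locus on chromosome 14 holds 7 of them on the reverse strand, namely Gzme (56355083 to 56358082), Gzmd (56367013 to 56370065), Gzmg (56394039 to 56397036), Gzmn (56403243 to 56412076), Gzmf (56442720 to 56448874), Gzmc (56468857 to 56479211) and Gzmb (56496295 to 56499717). Gzma (113230355 to 113237524) and Gzmk (113308142 to 113362442) lie on the reverse strand of chromosome 13. Gzmm (79524854 to 79531095) lies on the forward strand of chromosome 10. All 10 are annotated as protein-coding.

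Several of the chromosome 14 genes are near-copies of each other. The coding sequences of Gzmd and Gzme were identical at 705 of 744 aligned bases (94.8%). Gzmg was identical to Gzme at 89.5% and to Gzmd at 88.7% of aligned bases, and Gzmb and Gzmc were identical at 76.6%. Gzma and Gzmk, the pair on chromosome 13, were identical at 63.3%, no closer than Gzma and the chromosome 14 chymase gene Cma1, at 63.3%. The map of coding identity shows a block of close copies made of Gzmd, Gzme, Gzmf, Gzmg and Gzmn, from which only Gzmd and Gzme were read in these cells.

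**Figure D2:**
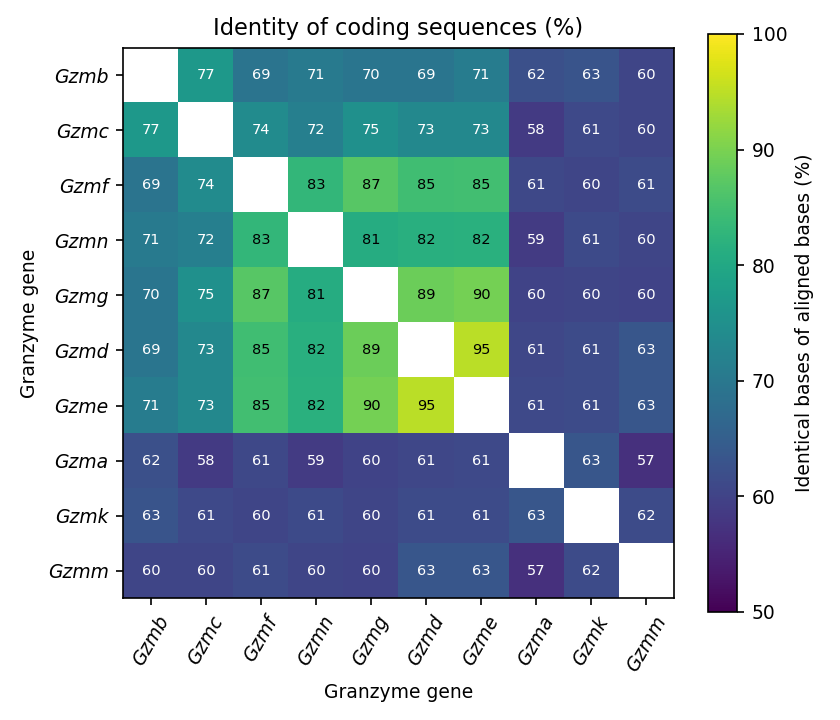
Percent of identical bases among the aligned bases of each pair of granzyme coding sequences in the GENCODE annotation of GRCm39, with genes in rows and columns and the colour scale running from 50 to 100%. Gzmd and Gzme stand out at 94.8%, and Gzma, Gzmk and Gzmm reach at most 63.3% with any other member.

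For part of these genes the region in front is shared as well. The 250 bases upstream of the RefSeq transcription start of Gzmd and Gzme were identical at 238 of 249 aligned bases (95.6%), and Gzme was identical to Gzmg at 91.0%, to Gzmf at 88.6% and to Gzmc at 85.6%, but to Gzmb at only 55.7%. Gzmn, whose coding sequence lies in the block of copies, was identical to Gzme at 59.8% and to Gzmg at 56.7% of aligned upstream bases. By the same measure the upstream stretch of Gzma had 58.8% with that of Gzmk and 60.1% with that of Gzmc. These regions are printed because genes with like upstream sequence had different read levels, Gzmd and Gzme being read and Gzmf and Gzmg not. Each is given 5′ to 3′ on the strand of the gene. The sequences come from RefSeq (table of assembly GRCm38.p6) and were located by exact match in GRCm39; they belong to the C57BL/6 reference, and BALB/c sequence was not used. Capitals mark the core letters bound by RUNX factors, ACCACA or its reverse complement TGTGGT, and, in Gzmc, Gzmd, Gzme, Gzmf and Gzmg, the aligned 8-base element that reads TGACGTCA, the cAMP response element, in part of them.
Gzmd: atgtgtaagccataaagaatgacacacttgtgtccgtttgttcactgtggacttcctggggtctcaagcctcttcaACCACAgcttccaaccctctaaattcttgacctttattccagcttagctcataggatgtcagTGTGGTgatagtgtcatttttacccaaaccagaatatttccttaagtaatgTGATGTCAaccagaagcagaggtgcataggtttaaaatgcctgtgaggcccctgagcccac
Gzme: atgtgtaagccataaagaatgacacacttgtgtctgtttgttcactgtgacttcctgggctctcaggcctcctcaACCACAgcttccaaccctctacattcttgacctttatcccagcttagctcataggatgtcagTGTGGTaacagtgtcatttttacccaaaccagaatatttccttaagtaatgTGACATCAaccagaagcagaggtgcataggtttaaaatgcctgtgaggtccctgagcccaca
Gzmg: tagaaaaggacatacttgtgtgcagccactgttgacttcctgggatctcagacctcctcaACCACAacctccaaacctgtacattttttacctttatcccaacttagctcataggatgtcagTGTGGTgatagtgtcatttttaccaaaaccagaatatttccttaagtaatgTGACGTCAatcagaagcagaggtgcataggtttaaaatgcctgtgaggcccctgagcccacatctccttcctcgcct
Gzmf: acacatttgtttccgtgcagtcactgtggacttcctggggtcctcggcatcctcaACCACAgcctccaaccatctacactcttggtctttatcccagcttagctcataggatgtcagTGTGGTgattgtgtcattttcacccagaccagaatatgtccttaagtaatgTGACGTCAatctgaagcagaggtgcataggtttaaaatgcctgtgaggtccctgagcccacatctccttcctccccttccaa
Gzmc: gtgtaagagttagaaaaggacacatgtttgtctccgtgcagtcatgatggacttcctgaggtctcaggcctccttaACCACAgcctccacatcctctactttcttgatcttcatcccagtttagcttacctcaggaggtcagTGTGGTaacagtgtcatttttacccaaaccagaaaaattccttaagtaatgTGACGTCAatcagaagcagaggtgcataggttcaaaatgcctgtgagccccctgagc
For comparison, the same stretch is given for Gzmb, the most abundant member, and for Gzma, the member on chromosome 13 that was higher in C57BL/6.
Gzmb: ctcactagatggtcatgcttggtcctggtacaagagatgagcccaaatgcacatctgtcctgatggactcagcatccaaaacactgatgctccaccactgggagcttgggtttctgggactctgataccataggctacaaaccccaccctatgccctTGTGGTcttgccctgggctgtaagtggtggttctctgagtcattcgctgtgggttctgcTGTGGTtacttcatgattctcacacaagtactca
Gzma: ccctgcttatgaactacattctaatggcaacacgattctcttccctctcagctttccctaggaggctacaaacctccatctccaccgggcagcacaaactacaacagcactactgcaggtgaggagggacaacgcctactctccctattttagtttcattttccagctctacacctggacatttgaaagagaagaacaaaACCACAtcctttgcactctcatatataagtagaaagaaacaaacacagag
In GRCm39 these lie at chr14:56370051-56370300 (Gzmd), chr14:56358083-56358332 (Gzme), chr14:56397037-56397286 (Gzmg), chr14:56448865-56449114 (Gzmf), chr14:56472115-56472364 (Gzmc), chr14:56499792-56500041 (Gzmb) and chr13:113237516-113237765 (Gzma), all on the reverse strand. The stretch of Gzmc lies inside the annotated gene, since a longer GENCODE transcript starts farther upstream, in bases outside its exons. Up to 15 bases of the others lie inside an annotated exon.

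The RUNX core, searched on both strands, was found at 2 places in front of each of Gzmb, Gzmc, Gzmd, Gzme, Gzmf and Gzmg and at 1 place in front of Gzma and of the first of 2 starts of Gzmm. It was absent from the windows of Gzmk and Gzmn. Among 32544 distinct mouse sequences of 250 bases from the same table, 14% hold it. The letters TGACGTCA, which equal their own reverse complement and are held by 1.55% of those sequences, were found in front of Gzmc, Gzmf and Gzmg. At the aligned place Gzmd has TGATGTCA (C4T) and Gzme has TGACATCA (G5A), with positions counted from 1 at the 5′ end of the element. The element thus differed at 1 base from TGACGTCA in Gzmd and in Gzme, which were read, while it was intact in Gzmf and Gzmg, which had 0 reads, and in Gzmc, which was read at a low level. In front of Gzmb the AP-1 letters TGAGTCA (searched as TGANTCA on both strands, 6.73% of sequences) were found 58 bases upstream of the start. GATA letters (AGATAA, 9.97% of sequences) and STAT letters (TTCNNNGAA, 7.04%) were found in front of Gzmm alone among the 10. Matches of letters are descriptions and were not tested against binding.

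Gzmb encodes granzyme B, which cleaves after aspartate and, in killer lymphocytes, starts apoptosis through caspases and Bid. Its TPM was 854, 1000.3 and 955 in S9, S10 and S11 (BALB/c) and 889.7, 867 and 889 in S12, S13 and S14 (C57BL/6), the order kept below. The strains overlapped, with both the lowest and the highest value in BALB/c. The mean was 937 ± 74.6 TPM (SD, n = 3) in BALB/c and 882 ± 12.9 TPM in C57BL/6, which placed Gzmb at rank 136 of 17469 genes with reads in BALB/c and at rank 141 of 17716 in C57BL/6. On library-scaled counts the log2 ratio between strains, with BALB/c as the base here and below, was 0.09 ± 0.06 (SE), with a 95% interval of -0.04 to 0.23 (edgeR's quasi-likelihood test, Benjamini-Hochberg adjusted p = 0.224). The interval bounds the fold between 0.971 and 1.17. The sign depended on scaling, since without TMM correction the log2 fold change was -0.05 and on log2(TPM + 1) it was -0.08. With plain library size the median of all genes also shifted by -0.14.

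Gzmd encodes granzyme D, whose substrates are poorly known. Its TPM was 2.62, 3.15 and 2.84 in BALB/c against 22.6, 22.4 and 19.5 in C57BL/6, with no overlap. The estimated reads were 44, 50.1 and 58 in BALB/c against 429, 376 and 418 in C57BL/6. The log2 fold change was 3.08 ± 0.12 (SE), which is 8.48-fold with a 95% interval of 7.02 to 10.2 (edgeR, adjusted p = 8.98e-08). In a culture of cells measured in bulk, a larger share of cells with a transcript and more transcript per cell cannot be told apart.

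Gzme, the closest copy of Gzmd, was lower than Gzmd in every library. Its TPM was 0.669, 0.576 and 0.150 in BALB/c against 6.38, 7.94 and 6.20 in C57BL/6, again with no overlap. These values rest on 11, 9 and 3 estimated reads in BALB/c and on 119, 131 and 130 in C57BL/6. Its log2 fold change was 4.10 ± 0.34 (SE), or 17.1-fold with a 95% interval of 10 to 29.3 (edgeR, adjusted p = 1.12e-05). The ratio of Gzmd to Gzme in TPM was 3.92, 5.46 and 18.9 in BALB/c against 3.54, 2.82 and 3.15 in C57BL/6, so the C57BL/6 libraries lay within a narrower range. Library S11, with 3 reads, gave the highest ratio, and without it the log2 fold change of Gzme was 3.63.

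Gzmc encodes granzyme C, another product of the locus found in killer lymphocytes. Its TPM was 1.13, 0.749 and 0.585 in BALB/c against 2.03, 1.72 and 2.43 in C57BL/6. The lowest C57BL/6 library was above the highest BALB/c library. This is a log2 fold change of 1.55 ± 0.29 (SE), or 2.92-fold with a 95% interval of 1.85 to 4.62 (edgeR, adjusted p = 0.00180). The reads behind it were 19, 12 and 12 in BALB/c against 40, 29 and 52.7 in C57BL/6, so the interval reaches below a 2-fold change.

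Gzma, on chromosome 13, encodes the trypsin-like granzyme A. Its TPM was 1.36, 0.475 and 1.11 in BALB/c against 8.64, 7.81 and 4.95 in C57BL/6, with no overlap. It had 21, 7 and 21 estimated reads in BALB/c and 152, 121 and 98 in C57BL/6. Between strains the log2 fold change was 3.01 ± 0.33 (SE), or 8.06-fold with a 95% interval of 4.76 to 13.6 (edgeR, adjusted p = 7.01e-05). The lowest library of each strain, S10 and S14, lay apart from the others, and without S10 the log2 fold change was 2.71. Gzma shares no word of 31 bases with another granzyme.

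Gzmm, on chromosome 10, encodes granzyme M, which cleaves after methionine or leucine. It had between 7 and 13 reads in every library. Its TPM was 0.519, 0.301 and 0.503 in BALB/c against 0.361, 0.409 and 0.538 in C57BL/6, so the strains overlapped. The log2 fold change was 0.16 ± 0.33 (SE), and its 95% interval of -0.58 to 0.91 leaves a fold between 0.669 and 1.87 (edgeR, adjusted p = 0.723). The few reads were placed on different transcripts of the gene. The transcript of 1304 bases took 7.71, 7 and 7.66 reads in BALB/c against 2.79, 0 and 0 in C57BL/6, while the transcript of 1301 bases took 0 in each BALB/c library and 7.21, 10 and 8.80 in C57BL/6. This split was not tested.

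Gzmf, Gzmg and Gzmn on chromosome 14 and Gzmk on chromosome 13 had 0 reads in every library, and none of them was tested. Counting error at this depth allows up to 3 reads per library, which for Gzmf and Gzmg is between 0.146 and 0.196 TPM, for Gzmk between 0.115 and 0.154 TPM and for Gzmn between 0.179 and 0.241 TPM. These limits lie below the level of Gzmd in every library, but Gzme in S11, at 0.150 TPM on 3 reads, lies among them. They do not cover reads that were assigned to a near-copy. Gzmk encodes a trypsin-like protease of memory T cells, and Gzmn is known from the testis.

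Of the 6 granzymes tested, 4 were called higher in C57BL/6 BMMCs and 0 lower, where a gene was called at an adjusted p under 0.05 and a fold change above 2. Over all 12461 genes tested, 13.3% were called, 7.73% as higher and 5.54% as lower in C57BL/6. At an adjusted p under 0.05 alone, 52.9% of genes differed between the strains, 27% as higher and 25.9% as lower in C57BL/6, so a difference by itself was common. Groups that did not overlap, as seen for the same 4 granzymes, were found for 61.9% of the genes tested and, in the direction of C57BL/6, for 31.1%. Gzme reached 10 reads in 1 of 3 BALB/c libraries and passed the filter on low counts only through the C57BL/6 libraries, where it is high. Gzma reached 10 reads in 2 of 3 BALB/c libraries, short of the 3 libraries the filter asks for, so it too passed with the help of the C57BL/6 libraries. The count of 4 of 6 is therefore a description and no support for a difference of the family. Reads of both strains were assigned to the same RefSeq transcripts, and the part of strain sequence in these calls was not tested. The plot of fold change against level sets the 6 genes among all others.

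**Figure D3:**
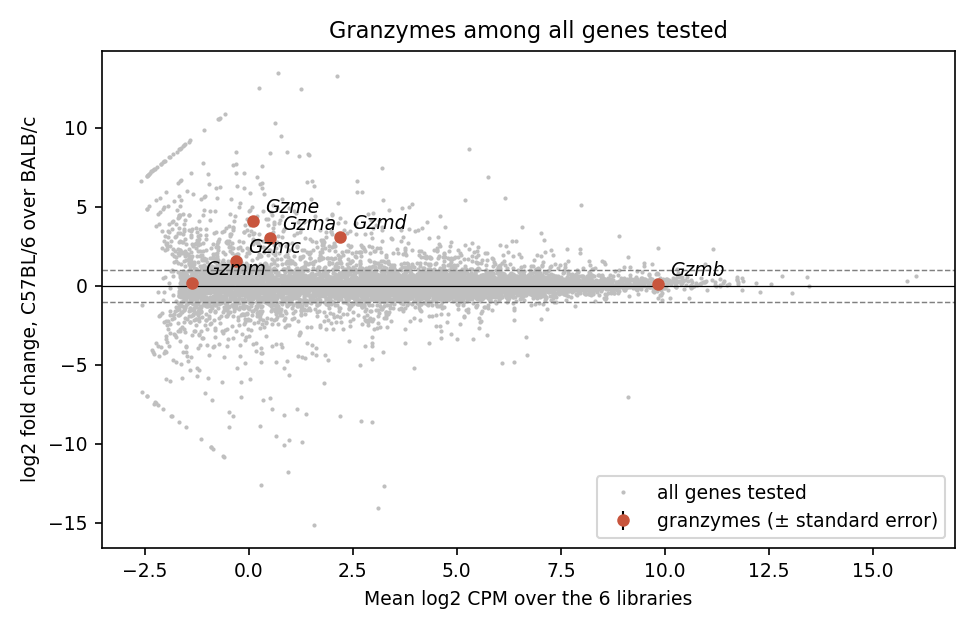
Log2 fold change (C57BL/6 over BALB/c) against mean log2 CPM over the 6 libraries, for all 12461 genes tested (grey) and the 6 granzymes tested (red, with standard errors where larger than the points); dashed lines mark a 2-fold change. Gzmb sits near 0 among the abundant genes, and Gzmc, Gzma, Gzmd and Gzme lie above the upper line at low levels.

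Because Gzmd and Gzme share 235 words of 31 bases, 25.2% of those of Gzmd and 26.5% of those of Gzme, a read could be assigned to either. Gzmd received 80%, 84.8% and 95.1% of the reads of the pair in BALB/c and 78.3%, 74.2% and 76.3% in C57BL/6. Summed, the pair had 55, 59 and 61 reads in BALB/c against 548, 506 and 548 in C57BL/6. The log2 fold change of the sum was 3.27 ± 0.12 (SE), with a 95% interval of 3 to 3.54 (edgeR, adjusted p = 6.13e-08). This sum was formed after the values of both genes were seen, and the part of read assignment in their separate fold changes was not tested. Gzmc shares 71 words of 31 bases with Gzme, 50 with Gzmd and 19 with Gzmb. The part of read assignment in the fold change of Gzmc was not tested either. The 6 chromosome 14 granzymes other than Gzmb, summed, gave 3.06 ± 0.11 (SE; edgeR, adjusted p = 6.05e-08). With Gzmb included, the sum of all 7 gave 0.12 ± 0.06 (SE; edgeR, adjusted p = 0.129), since Gzmb holds nearly all of these reads.

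Levels within a strain fell in a like order. In BALB/c the order was Gzmb, Gzmd, Gzma, Gzmc, Gzme and Gzmm, and from Gzma on each gene overlapped the next in TPM over the 3 libraries. In C57BL/6 it was Gzmb, Gzmd, Gzma, Gzme, Gzmc and Gzmm, and only Gzma (7.13 ± 1.93 TPM) and Gzme (6.84 ± 0.957 TPM) overlapped. Gzmb exceeded Gzmd by a TPM ratio of 326, 318 and 336 in BALB/c and of 39.5, 38.7 and 45.5 in C57BL/6. All granzymes other than Gzmb together reached 6.30, 5.25 and 5.19 TPM in BALB/c and 40, 40.3 and 33.7 TPM in C57BL/6.

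The chromosome 14 locus continues with the mast cell proteases. Going away from the start of Gzmb, Gzmc starts at 20.5 kb, Gzmf at 50.8 kb, Gzmn at 87.6 kb, Gzmg at 102.7 kb, Gzmd at 129.7 kb and Gzme at 141.6 kb, and Ctsg, the cathepsin G gene, follows at 159.7 kb. Gzmf, Gzmn and Gzmg, at 0 reads, thus lie between Gzmc and Gzmd, which were read, as the plot of levels along the locus shows. Of the 8 other proteases of the locus, all tested, 3 were called higher and 2 lower in C57BL/6, beside 7.73% and 5.54% of all genes tested. The basophil protease gene Mcpt8 had 178 ± 6.14 TPM in BALB/c and 342 ± 11.9 TPM in C57BL/6 (log2 fold change 1.12; edgeR, adjusted p = 8.22e-08). Mcpt9 (3.10; edgeR, adjusted p = 1.42e-08) and Cma2 (1.91; edgeR, adjusted p = 4.27e-08) were higher too. The coding sequences of these last 2 were identical at 98.1% of aligned bases, so reads could be assigned to either and their calls are uncertain as separate ones. Ctsg (-1.29; edgeR, adjusted p = 6.44e-05) and the chymase gene Mcpt4 (-1.16; edgeR, adjusted p = 0.000347) were lower, so Gzme and Ctsg, neighbours in this list, were called in opposite directions.

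**Figure D4:**
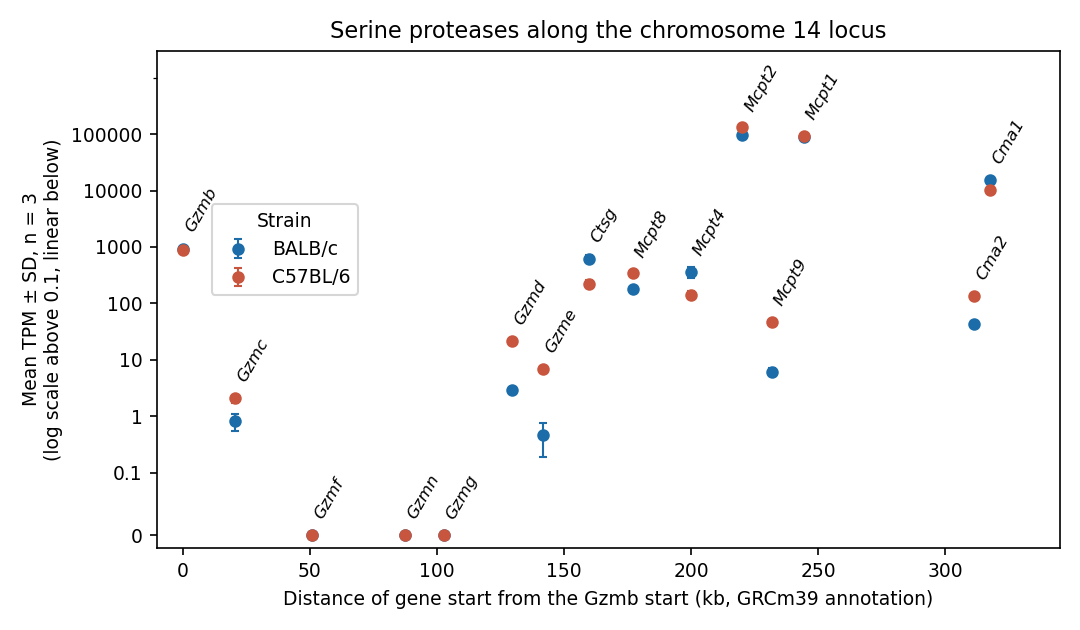
Mean TPM with SD (n = 3 per strain) of each serine protease gene of the chromosome 14 locus against the distance of its start from that of Gzmb in kb; the level axis is logarithmic above 0.1 and linear below. Gzmf, Gzmn and Gzmg at 0 separate Gzmb and Gzmc from Gzmd and Gzme, and beyond Gzme all 8 proteases were read.

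Most genes that load, store and release granzymes were read in these cells, but the gene of perforin was not. Prf1, which encodes perforin, had 0 reads in every library, and so had Nkg7, a granule protein gene of cytotoxic lymphocytes. Srgn, the gene of the granule proteoglycan serglycin, had 3853 ± 74.8 TPM in BALB/c and 3435 ± 30.5 TPM in C57BL/6, and its CPM overlapped between strains (log2 fold change 0.02; edgeR, adjusted p = 0.717). Ctsc, the gene of the activating peptidase cathepsin C, had 31.1 ± 0.434 TPM in BALB/c and 20.8 ± 1.96 TPM in C57BL/6. Its log2 fold change of -0.61 ± 0.05 (SE; edgeR, adjusted p = 1.62e-05) was under a 2-fold change. Of the 18 genes of the list, 15 were tested, 1 was called higher and 0 lower (7.73% and 5.54% over all genes tested), and the median log2 fold change was 0.06, against -0.01 over all genes tested. The gene called was Lyst, a regulator of lysosome and granule size, with 2.70 ± 0.476 TPM in BALB/c and 10.1 ± 0.293 TPM in C57BL/6 (log2 fold change 2.08; edgeR, adjusted p = 2.90e-07).

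Of 16 serpin genes listed as granzyme inhibitors, 12 had at most 3 reads in every library and 4 were tested. All 4 had an adjusted p under 0.05 with higher values in C57BL/6, where 27% of all genes tested passed that threshold as higher, and 1 was called, against 7.73% of all genes called higher. Serpinb9, whose protein inhibits granzyme B, had 264, 240 and 338 reads in BALB/c against 504, 486 and 563 in C57BL/6, a log2 fold change of 0.97 (edgeR, adjusted p = 1.66e-05). Its fold of 1.95 fell just short of the threshold. Serpinb6b was the gene called, on 4, 3 and 0 reads in BALB/c against 19, 17 and 26 in C57BL/6 (edgeR, adjusted p = 0.00148). With 0 BALB/c libraries at 10 reads, it entered the test only through the C57BL/6 libraries. Serpinb1a (log2 fold change 0.53) and Serpinb6a (0.49) were the abundant members.

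All 15 genes of proteins that granzymes cleave were tested, with 1 called higher and 0 lower (7.73% and 5.54% over all genes tested) and a median log2 fold change of -0.04. Gsdme, the gene of the pore-forming gasdermin E, was the gene called, with 241, 220 and 244 reads in BALB/c against 567, 500 and 605 in C57BL/6 (log2 fold change 1.32; edgeR, adjusted p = 2.17e-06). At an adjusted p under 0.05 alone, 3 substrate genes were higher and 6 lower in C57BL/6, beside 27.0% higher and 25.9% lower of all genes tested. Of the transcription factors that control granzyme genes in lymphocytes or mast cells, 20 of 21 listed were matched and 17 tested. Id2 alone was called, as higher (1.22; edgeR, adjusted p = 3.94e-06), beside 7.73% of all genes tested, and the median was 0.08. At an adjusted p under 0.05 alone, 6 factor genes were higher and 4 lower, and of the loading and release genes 5 were higher and 1 lower. The shares over all genes tested at that threshold were again 27.0% higher and 25.9% lower. Tbx21, the gene of T-bet, had 0 reads in every library. Eomes, the gene of the related factor eomesodermin, had 50, 80 and 63 reads in BALB/c against 103, 78 and 121 in C57BL/6, and its log2 fold change of 0.70 (edgeR, adjusted p = 0.0233) was under 2-fold. Runx3 was read at 90.6 ± 8.72 TPM in BALB/c and 77.3 ± 3.43 TPM in C57BL/6 (edgeR, adjusted p = 0.379).

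Markers of other cells that express granzymes were counted beside these results. Of 7 NK cell markers, 4 had at most 3 reads in every library, and their summed level was 6.38 to 6.94 TPM in BALB/c and 5.99 to 7.21 TPM in C57BL/6, which overlapped. Ncr1, an activating receptor gene, made up most of that sum, with 5.82 TPM in BALB/c and 4.68 TPM in C57BL/6 (log2 fold change -0.14; edgeR, adjusted p = 0.327). Of the others, Eomes is given above, and Klrd1 had 0 reads in BALB/c and 18, 18 and 7 in C57BL/6. Of 10 T cell markers none passed the filter on low counts, and 7 had at most 3 reads in every library. All 6 basophil markers were tested and 3 were called higher in C57BL/6, namely Mcpt8, Prss34 and Cebpa, with a summed level of 509 to 525 TPM in BALB/c and 632 to 659.9 TPM in C57BL/6. Over all genes tested 7.73% were called higher. Mcpt8 was already counted above among the proteases of the locus, and Cd200r3, the most abundant of the 6 in BALB/c, had 339 TPM in BALB/c and 286 TPM in C57BL/6 (log2 fold change -0.07; edgeR, adjusted p = 0.154). Prss34 and Cebpa had 0 BALB/c libraries at 10 reads and were tested only through the C57BL/6 libraries. The marker Irf8 of plasmacytoid dendritic cells had 12, 2 and 3 reads in BALB/c against 164, 137 and 232 in C57BL/6, while Siglech had 0 in all. The markers of innate lymphoid cells summed to 0.858 to 1.09 TPM in BALB/c and 1.86 to 1.98 TPM in C57BL/6. Gata3, called higher, made up nearly all of that sum, with 0.956 TPM in BALB/c and 1.90 TPM in C57BL/6. Thy1 had 0 reads, Il7r 3 reads in S9 alone and Il17rb 1 read in S12 alone. Rora had 12 reads in S11 and 1 in S13. The part of such cells in the granzyme differences was not tested.

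By closeness of profile over the 6 libraries, the genes nearest to Gzmd were Dapk1, Enc1 and Slc9a9, with a root mean square difference of 0.0819, 0.0959 and 0.115 on the log2 CPM scale after centring on the BALB/c mean. Profiles centred in this way are close mainly where the fold change between strains is alike. Dapk1, Enc1 and Slc9a9 had log2 fold changes of 3.090, 3.054 and 3.025, beside 3.084 for Gzmd. Shared regulation was not tested. Spry4, Fosl1 and Tmem176b were nearest to Gzma (0.210, 0.245 and 0.249). For Gzmc they were Gm42262, H4c3 and Fas (0.142, 0.142 and 0.147), and for Gzme the uncharacterized genes LOC115489417, Gm40899 and Gm36897 (0.260, 0.302 and 0.311). Gzme, with the fewest reads in BALB/c, had the least close neighbours of the 4.

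Leaving out each library in turn and changing the test, scaling or filter moved the size of the differences but not their direction for Gzma, Gzmc, Gzmd and Gzme wherever they were tested, as the plot of fold changes under each setting shows. The log2 fold change of Gzmd lay between 2.54 and 3.15, that of Gzma between 2.03 and 3.26, that of Gzme between 2.43 and 4.47 and that of Gzmc between 0.75 and 1.82. The lowest value in each of these ranges was on log2(TPM + 1), a scale that understates the change of low genes, and there Gzmc was under the 2-fold threshold.

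**Figure D5:**
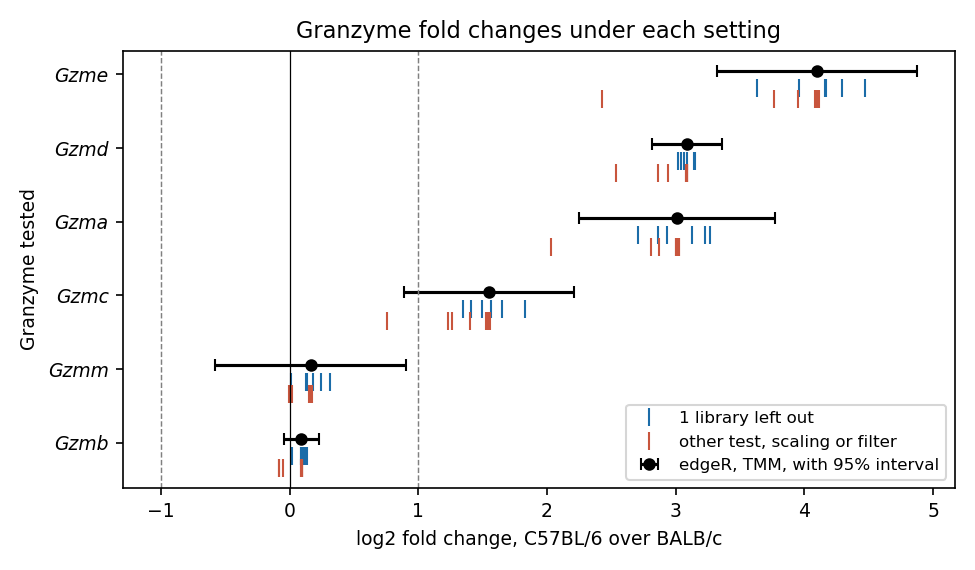
Log2 fold change (C57BL/6 over BALB/c) for the 6 granzymes tested; black points with bars are the edgeR values with 95% intervals, blue marks leave out 1 library and red marks use another test, scaling or filter, and dashed lines mark a 2-fold change. Gzma, Gzmd and Gzme lie above 1 under each setting that tested them, which for Gzma and Gzme leaves out the filter of 10 counts in every library, and Gzmb and Gzmm stay around 0.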

How the data were processed

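RNA of 6 BMMC libraries was analysed. The authors checked reads with FastQC 0.11.5 and assigned them with Salmon 0.8.2, which splits a read that matches several transcripts. The deposited tables give, per transcript, the estimated count, the deposited TPM values and the lengths. The methods name GRCm39, whereas the tables list RefSeq transcripts. Reads of both strains were assigned to the same transcripts. The part of sequence differences between the strains in the read counts was not tested. Here transcripts were matched to genes without version through a RefSeq table (GRCm38.p6, names only): 106440 of 129698 matched, and 2.69% to 3.12% of reads were left out. Estimated counts were summed per gene and rounded.

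Strains were compared by quasi-likelihood in edgeR 4.0.16 under R 4.3.3, with TMM factors (0.94 to 1.05), a minimum count of 10 and Benjamini-Hochberg adjustment over 12461 genes. The design had strain as its only term. The test was checked on simulated data with the same spread for every gene, so that check does not cover genes of few reads and larger spread. An exact permutation test of 3 against 3 cannot go below p = 0.100 and was not used. Replicates differed by more than counting noise (chi-square per degree of freedom 6.53 to 13.6). Floors of 3 reads cover counting error only. CPM use TMM-corrected library sizes.

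Alternatives were DESeq2 1.42.0, a length offset, other size factors, other filters, limma 3.58.1 on log2 TPM with a pseudocount of 1 or 0.1, version-matched transcripts, the most abundant transcript alone and each library left out. All 10 members are given. Of each pathway list, genes past both thresholds are named (at most 6, by size of change), with Prf1, Srgn and Ctsc always and, for each granzyme called, the 3 tested genes of nearest profile. Other genes were named after their values were seen. Members and lists were chosen with earlier results of these data known.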

Additional observations from a re-analysis of the deposited data

How the results depend on the processing

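With at least 10 counts required in every library, 2 granzymes were called higher in place of 4, because Gzma and Gzme were no longer tested, and the genes called higher fell from 963 to 613 and those called lower from 690 to 404. With limma on log2(TPM + 1), 434 genes were called higher and 365 lower, 2 genes of the loading, inhibitor, substrate and transcription factor lists in place of 4, and Gzmc, at 0.75 (adjusted p = 0.00124), was under 2-fold. Taking the most abundant transcript alone gave Gzmc 1.69 TPM in C57BL/6, Gzmd 2.49 TPM in BALB/c and 19.2 TPM in C57BL/6, and Gzmm 0.291 TPM in BALB/c and 0.0336 TPM in C57BL/6. The sums without Gzmb and of Gzmd with Gzme were chosen after seeing the data. Gzmb stayed under the threshold in all 15 alternatives (adjusted p between 0.0907 and 0.668). Few reads limit Gzma, Gzmc, Gzme and Gzmm in BALB/c. No paired analysis was made, because the labels give no pairing of libraries between the strains.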
